A study of Homo sapiens with 6 samples.

Results

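The Kruppel-like factors described here are KLF2, KLF3, KLF4, KLF6, KLF10, KLF11, KLF12, KLF13 and KLF16, taken by gene symbol. All 9 were matched to a row among the 57820 gene rows of each library's table. The RNA came from U266, a human multiple myeloma cell line grown in RPMI-1640 with fetal bovine serum, and was enriched for poly-A. A group of 3 samples was the control, and the cells of the other 3 had received C-MYC from a lentivirus, behind the EF1A promoter, which is active in most cell types. The labels do not say what the controls carry, whether the transduced line is 1 clone, or whether the samples of a group were separate cultures, so the p-values set the groups against a spread that may be technical. In RNA from a whole culture, fewer cells expressing a gene and less RNA per cell cannot be told apart. All levels are relative to the other RNA of the same library, so a change in total RNA per cell was not measured. Higher and lower here mean relative levels.

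Kruppel-like factors are transcription factors with C2H2 zinc fingers at the C-terminus that bind GC boxes and CACCC elements, as the related SP factors do. Outside the fingers they differ: some recruit the corepressor CtBP, some recruit SIN3 with histone deacetylases, and others mainly activate. In lymphocytes KLF2 is known for quiescence and homing, and several members restrain division, whereas MYC drives growth and division.

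Summed expected counts, RSEM's estimates of the reads of each gene, ran from 27139978 to 158667309 per library, and the shallowest was a MYC library. MYC itself rose from 4.20 ± 0.304 to 102.6 ± 9.43 CPM (expected counts scaled to library size with TMM factors, SD, n = 3), in the direction of the labels. Reads of the vector and of the chromosomal gene were not told apart. Of 9 plasma cell markers 1 was called higher with MYC and 5 lower, beside 28.8% and 32.1% of all genes tested. Their summed CPM ran from 3534 to 3773 in control and from 2304 to 2584 in MYC libraries. SDC1 fell from 985 ± 54.5 to 437 ± 53.8 CPM and PRDM1 from 150.2 ± 0.6 to 108 ± 4.93 CPM, while CD38 rose from 1.22 ± 0.0199 to 7.004 ± 0.49 CPM. On the log2 scale SDC1 was at -1.17, but at -0.23 after correction for GC content, and PRDM1 was at -0.47 and -0.60 and CD38 at 2.53 and 2.39. Markers of other cells were low. Their summed CPM ran in control and MYC libraries from 10.7 to 11.8 and 18.9 to 21.5 for B cells, from 8.73 to 10.9 and 15.5 to 17.5 for T and NK cells, from 0.688 to 0.802 and 0.416 to 0.945 for myeloid cells, from 9.81 to 11.9 and 9.56 to 10.7 for stromal cells, and from 3.83 to 4.64 and 6.66 to 7.72 for epithelial cells. Called higher were 2 of 3 tested B cell markers, CIITA at 0.78 and PAX5 at 2.21 on the log2 scale. So were 5 of 6 tested T and NK markers (GNLY at 4.71, CD3G at 2.29, CD3D at 1.42 and CD3E at 0.82 among them), with CD2 lower at -0.63. Also higher were 2 of 4 tested stromal markers (COL3A1 at 0.41 and DCN at 0.70) and KRT18 of 2 tested epithelial markers, at 1.146. The call for DCN ended without control library 3 (0.55), with the GC correction (0.48), with an offset for effective length (0.39) and on log2(TPM + 1) (0.16). COL1A1 was lower, at -1.49, and at -0.60 with the GC correction, and CSF1R was lower at -0.88, but at -0.34 and not called with it. KRT8, at -0.30, was not called. CD22 in control and LUM in both groups were at 0, and MS4A1 was under 0.04 CPM on average. Their part in the results was not tested.

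KLF3, KLF6, KLF10, KLF11 and KLF12 fell with MYC, KLF16 was lower by 1 fit and higher by the other, KLF13 was lower by 1 fit and near 0 by the other, KLF2 was not called by 1 fit and higher by the other, and KLF4 was all but silent. The groups were set against each other with edgeR's quasi-likelihood test, where called means an adjusted p under 0.05 among the 17679 genes tested. By this rule 7 of the 8 members tested were called lower and 0 higher, beside 32.1% of all genes tested called lower and 28.8% called higher (60.8% in either direction). KLF11, KLF12 and KLF16, 3 of the 8, were lower by at least 1.5-fold, beside 21.8% of all genes tested. All 3 MYC libraries lay below all controls for 7 of the 8 members tested, beside 35.1% of all genes tested. They lay above all controls for 0, beside 32.1%. The median log2 fold change was -0.49 over the 8 members tested and -0.02 over all genes. The members were chosen with earlier results of these data known, so these shares are a description and not a test. Fold changes in these libraries followed the GC content of the gene, so every member is also given after an offset that removes each library's trend on GC. With that offset 5 members were lower and 2 higher, beside 26.9% and 31.5% of all genes (58.4% in either direction). KLF10, KLF11 and KLF12 were then lower by at least 1.5-fold, beside 10.7% of all genes, and the medians were -0.35 for the members and 0.02 for all genes. KLF3, KLF6, KLF10, KLF11 and KLF12 were called lower both ways.

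**Figure D1:**
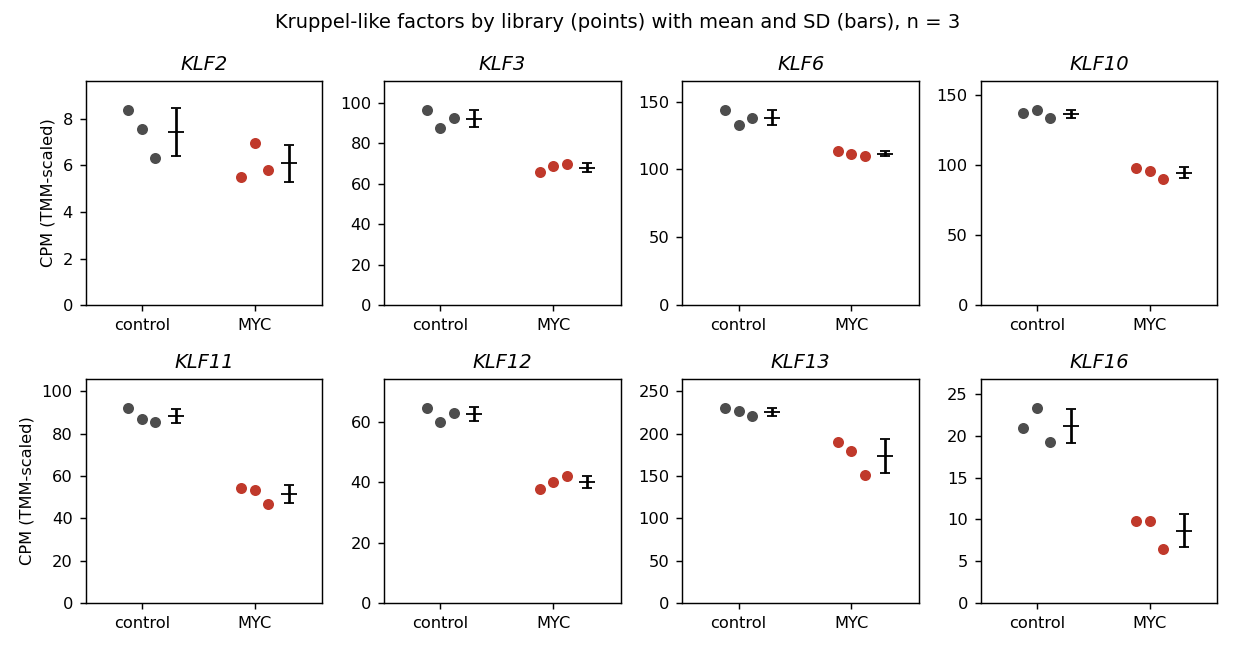
CPM with TMM scaling (vertical axes from 0) of the 8 members tested, 1 point per library, with the mean and SD of 3 libraries as bars. The MYC libraries lie below all controls for every member shown except KLF2, whose groups overlap.

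Levels between genes were compared in the deposited TPM, which accounts for transcript length. TPM was not corrected for GC content, on which the results of KLF2, KLF13 and KLF16 depended. In control KLF13 and KLF10 led, at 62.99 ± 3.87 and 61.1 ± 1.85 TPM, and their libraries overlapped. KLF6 followed at 49.7 ± 2.22, KLF11 at 38.1 ± 0.382, KLF3 at 24.5 ± 1.94, KLF12 at 12.5 ± 0.331, KLF16 at 10.3 ± 0.759 and KLF2 at 5.33 ± 0.81 TPM, and no neighbours in this part of the order overlapped. In MYC libraries KLF13 stood alone at the top with 54.8 ± 2.18 TPM, above KLF10 at 41.2 ± 0.237. At the lower end KLF2, at 4.27 ± 0.56 TPM, and KLF16, at 4.07 ± 0.752 TPM, overlapped, whereas in control KLF16 lay above KLF2. Summed over the 9 members, the TPM was 276.0, 257.0 and 260.6 in control and 187.5, 192.6 and 191.4 in MYC libraries. The share of KLF13 in that sum went from 23.8 ± 0.637% to 28.8 ± 0.928%, and that of KLF11 from 14.4 ± 0.399% to 12.6 ± 1.48%. RSEM's mean transcript length for KLF13, which enters its TPM, was shorter in the MYC libraries (4213 against 4885 bases).

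**Figure D2:**
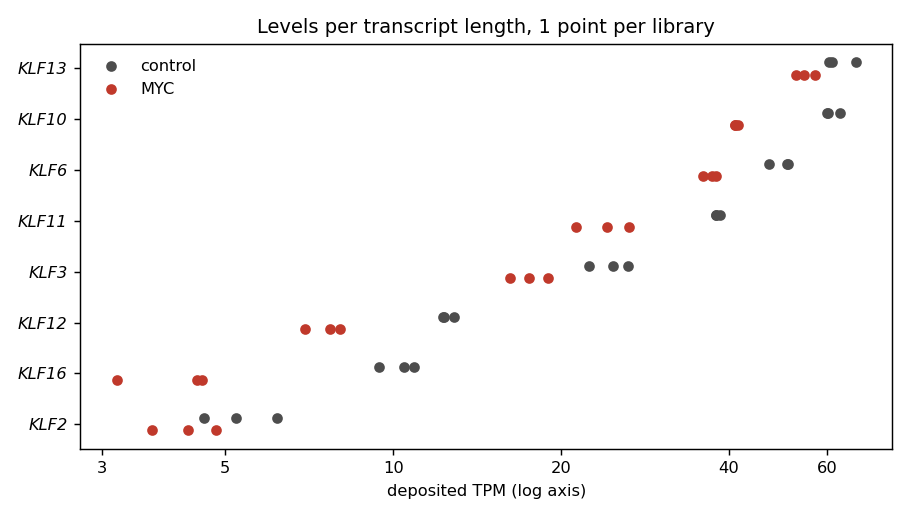
Deposited TPM of the 8 members tested (horizontal log axis), 1 point per library. KLF13 and KLF10 share the top in control, and KLF13 is alone there in the MYC libraries.

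The promoters of the members are shown for 2 kinds of short motif, the E-box CACGTG, to which MYC binds with MAX, and the GC box GGGCGG, to which Kruppel-like and SP factors bind. RefSeq windows on GRCh38.p14, from 250 bases before to 50 after a transcription start, were found for 7 members, in 11 windows, and KLF3 and KLF10 had no entry. CACGTG, which reads the same on both strands, stood in windows of KLF4, KLF6 and KLF11, 3 of 7 members, and 8.77% of the 27305 genes in the table had it. It began 157 bases before the start in KLF4, 97 in KLF6 and 182 in the first of the 2 windows of KLF11. These letters are a description and not evidence that MYC was bound there. The stretches around them, from minus strand chr9:107489881-107489966, minus strand chr10:3785261-3785346 and plus strand chr2:10043607-10043692, have the E-box in capitals.
KLF4: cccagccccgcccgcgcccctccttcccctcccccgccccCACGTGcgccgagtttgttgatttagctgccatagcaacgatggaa
KLF6: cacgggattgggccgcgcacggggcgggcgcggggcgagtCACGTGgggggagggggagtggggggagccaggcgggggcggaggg
KLF11: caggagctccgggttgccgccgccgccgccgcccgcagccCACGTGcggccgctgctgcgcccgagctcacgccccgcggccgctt

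GGGCGG on either strand stood in at least 1 window of all 7 members, and in a window of 48.3% of the genes in the table. KLF2 and KLF16 are shown because their values turn on the GC content of their transcripts, which is a different measure from that of a promoter window. Their windows were 80.7% and 86.0% G and C and had 6 and 7 GC boxes. The window of KLF13 was 78.3% G and C with 3 GC boxes, and those of KLF11 were 77.3% and 75.3% with 2 and 7. The window of KLF4 had 4 GC boxes, that of KLF6 had 2, and the second of the 4 windows of KLF12 had 5. The 250 bases before the start are from plus strand chr19:16324576-16324825 and minus strand chr19:1863580-1863829. They have GC boxes of both strands in capitals, 4 in KLF2 and 7 in KLF16, and neighbouring boxes can share bases.
KLF2: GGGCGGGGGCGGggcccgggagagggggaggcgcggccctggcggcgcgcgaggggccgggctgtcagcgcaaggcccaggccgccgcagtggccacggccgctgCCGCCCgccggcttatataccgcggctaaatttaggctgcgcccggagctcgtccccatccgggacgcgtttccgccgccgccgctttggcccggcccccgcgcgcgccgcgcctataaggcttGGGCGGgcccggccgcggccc
KLF16: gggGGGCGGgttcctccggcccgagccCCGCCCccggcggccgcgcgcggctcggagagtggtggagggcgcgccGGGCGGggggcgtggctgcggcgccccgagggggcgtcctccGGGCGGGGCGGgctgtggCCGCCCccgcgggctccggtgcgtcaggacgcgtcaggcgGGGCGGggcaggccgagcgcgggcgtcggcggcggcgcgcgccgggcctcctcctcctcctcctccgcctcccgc

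KLF3 and KLF12 are repressors that recruit CtBP, and both fell. KLF3 (ENSG00000109787.8, chromosome 4) stood at 96.3, 87.7 and 92.7 CPM in the controls and at 65.5, 68.7 and 69.7 CPM in the MYC libraries. The groups did not overlap, and the fall was -0.44 ± 0.06 on the log2 scale (SE, edgeR, adjusted p = 0.000266). KLF12 (ENSG00000118922.12, chromosome 13), first described as a repressor of AP-2 alpha, stood at 64.7, 60.04 and 63.0 CPM in the controls and at 37.9, 40.2 and 42.0 CPM with MYC. Every MYC library lay well below the lowest control, and the log2 fold change was -0.64 ± 0.06 (adjusted p = 5.5e-05, edgeR). With the GC offset KLF3 was at -0.50 ± 0.05 and KLF12 at -0.87 ± 0.04, so both falls were larger there. KLF3 over KLF12 in TPM was 1.96 ± 0.122 in control and 2.33 ± 0.139 in MYC libraries, a difference that no split of 3 against 3 could take below an exact two-sided p of 0.1.

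KLF10 and KLF11 are the TGF-beta inducible members, which repress through SIN3A and restrain growth in several cell types. KLF10 (ENSG00000155090.10, chromosome 8) stood at 137.5, 139.2 and 133.6 CPM in the controls and at 97.9, 95.6 and 90.3 CPM with MYC. Both groups were tight and lay far apart, and the log2 fold change was -0.53 ± 0.05 (adjusted p = 6.8e-05, edgeR). KLF11 (ENSG00000172059.6, chromosome 2) stood at 92.1, 87.0 and 85.6 CPM in the controls and at 54.5, 53.3 and 46.6 CPM with MYC. Its fall, at -0.78 ± 0.07 (adjusted p = 4.4e-05, edgeR), was the largest of the 5 that held with the GC offset by the group-only fit. With the offset KLF10 was at -0.68 ± 0.05 and KLF11 at -0.72 ± 0.05. KLF11 over KLF10 in TPM was 0.610, 0.632 and 0.631 in the controls and 0.644, 0.590 and 0.514 with MYC, so the groups overlapped (exact two-sided p = 0.4, adjusted p = 0.4 over the 3 ratios computed between members).

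KLF13 and KLF16 recruit SIN3A as KLF9 does, and for these members the result depended on GC content or transcript length. KLF13 (ENSG00000169926.5, chromosome 15), known as a late activator of chemokine genes in T cells, stood at 230.3, 226.8 and 221.0 CPM in the controls and at 189.6, 180.0 and 151.7 CPM with MYC. The MYC libraries were lower and more spread, and the log2 fold change was -0.38 ± 0.08 (adjusted p = 0.00375, edgeR). It was 0.0043 ± 0.05 with the GC offset (adjusted p = 0.949, edgeR). RSEM's mean transcript length for KLF13, weighted by abundance, was 4781, 4866 and 5008 bases in the controls and 4569, 4318 and 3753 bases with MYC. These lengths did not overlap, and with an offset for effective length the fall was -0.15, still called. Which of the 7 KLF13 transcripts in the table account for this was not analysed here.

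KLF16 (ENSG00000129911.4, chromosome 19), a repressor first studied at dopamine receptor genes, stood at 20.9, 23.3 and 19.3 CPM in the controls and at 9.80, 9.75 and 6.42 CPM with MYC. By the group-only fit it was 2.45-fold lower (log2 fold change -1.29 ± 0.16, adjusted p = 0.000173, edgeR), while with the GC offset it was 1.87-fold higher (0.90 ± 0.07, adjusted p = 1.13e-05, edgeR). At 71.7% GC it lay at the edge of the data: 8 tested genes, KLF16 itself among them, had as much GC or more. The trend there was therefore fitted almost wholly to genes of lower GC content, and how well it holds at that edge was not tested. By the group-only fit KLF16 had the largest fall of the members, and by the rule for such a member the 3 genes most like KLF16 over the 6 libraries were ZBTB45, TSR3 and BICRA, at distances of 0.111, 0.13 and 0.147 on the log2 scale among 9781 candidates. Their GC contents were 64.9%, 65.8% and 64.4%, and their log2 fold changes of -1.34, -1.27 and -1.30 were 0.033, 0.20 and 0.0098 with the GC offset.

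KLF2, KLF4 and KLF6 act mainly as activators and belong to the genes that many cells switch on within minutes of a stimulus. KLF6 (ENSG00000067082.10, chromosome 10), a growth-restraining factor lost in some tumours, stood at 143.6, 132.4 and 138.1 CPM in the controls and at 113.7, 111.4 and 109.7 CPM with MYC. Its groups did not overlap, and its log2 fold change of -0.31 ± 0.05 (adjusted p = 0.0012, edgeR) was -0.20 ± 0.05 with the GC offset (adjusted p = 0.00665, edgeR), the smallest of the 5 falls that held both ways. KLF2 (ENSG00000127528.5, chromosome 19) stood at 8.36, 7.57 and 6.31 CPM in the controls and at 5.48, 6.97 and 5.79 CPM with MYC. Control library 3 lay below MYC library 2, and the log2 fold change of -0.26 ± 0.13 did not pass (adjusted p = 0.124, edgeR). Without control library 3 it was -0.38 and called lower (adjusted p = 0.0446, edgeR). With the GC offset KLF2 was called higher, at 1.37 ± 0.17 (adjusted p = 0.00012, edgeR). It had 66.8% GC, and 158 tested genes, KLF2 itself among them, were at or above that. KLF4 (ENSG00000136826.10, chromosome 9), known from reprogramming, had 0 reads in each control and in MYC library 1, 1 read in MYC library 2 and 2 in MYC library 3. It was not tested, and a count of 0 allows up to 3 reads, or 0.0227 to 0.113 CPM, by counting error alone.

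The trend on GC content separated the groups and so cannot be told apart from the effect of MYC. The median log2 fold change was 0.23 for the 3673 tested genes of 40 to 45% GC, the range of KLF12, and -0.46 for the 2861 genes of 55 to 60%, the range of KLF13. It was -1.66 for the 393 genes of 65 to 80%, the range of KLF2 and KLF16, where 91.1% of genes were called lower. At the GC content of KLF16 the fitted trend stood 1.05 to 1.23 above the gene's mean over libraries in the controls and 0.716 to 1.51 below it with MYC, on the log2 scale. At that of KLF3 the trend stayed within -0.026 to 0.045. With the offset the log2 fold changes of KLF3, KLF6, KLF10, KLF11 and KLF12 kept their sign and their call, and those of KLF2 and KLF16 changed sign. KLF13 went from -0.38 to 0.0043 and lost its call.

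**Figure D3:**
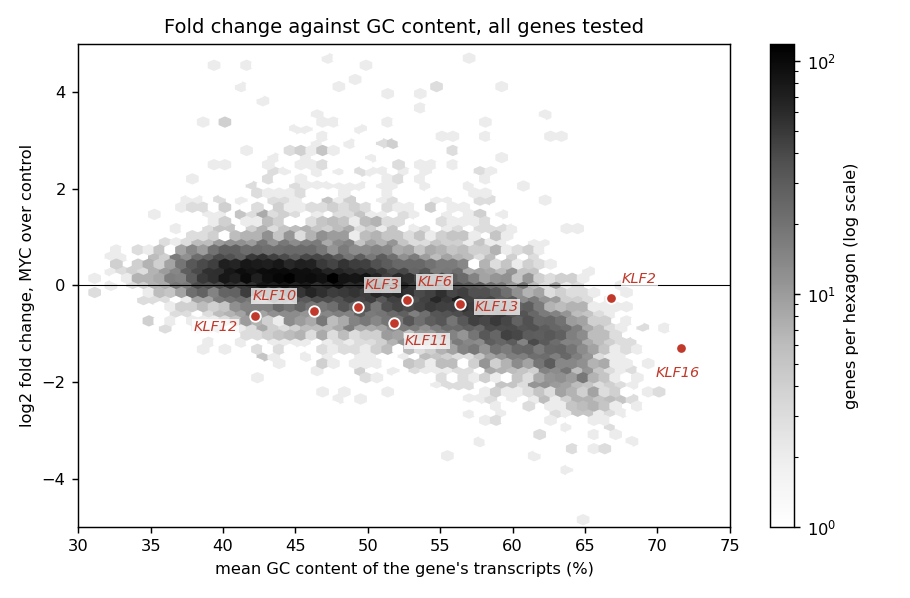
Log2 fold change of MYC over control (vertical) against the mean GC content of a gene's transcripts (horizontal), with all tested genes as grey hexagons and the 8 members tested as points. KLF2 and KLF16 lie at the upper end of GC content, above the median of genes of 65 to 80% GC. KLF12, KLF10, KLF3, KLF11 and KLF6 lie below the medians of genes in their GC ranges, and KLF13 lies above that of its range.

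The rest of the family went both ways. Of 17 other KLF and SP genes 16 were matched and 11 tested. Of these 2 were called higher and 7 lower, beside 28.8% and 32.1% of all genes tested, with a median log2 fold change of -0.35. With the GC offset 2 were higher and 6 lower, beside 31.5% and 26.9% of all genes, at a median of -0.30. KLF7, a factor of neurons and of lymphocyte progenitors, rose from 8.11 ± 0.365 to 15.3 ± 1.27 CPM, at 0.93 ± 0.09 (adjusted p = 4.31e-05, edgeR) and 0.91 with the GC offset. No KLF other than KLF7 was called higher by the group-only fit. KLF9, closest in type to KLF13 and KLF16, fell from 44.4 ± 2.57 to 26.9 ± 1.37 CPM, at -0.72 ± 0.07 (adjusted p = 5.34e-05, edgeR) and -0.87 with the offset.

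KLF5 and KLF8 were low and were called lower both ways, at -0.35 and -0.42 by the group-only fit and at -0.50 and -0.57 with the offset. The call for KLF5 ended without control library 3 (-0.34), MYC library 2 (-0.37) or MYC library 3 (-0.29), with an offset for effective length (-0.34) and on log2(TPM + 1) (-0.25), and that for KLF8 without control library 3 (-0.40). KLF15 and KLF1, under 0.5 CPM on average, were at -1.23 and -0.81, and at -0.45, not called, and 0.66, called higher, with the offset, and the call for KLF1 ended when a replicate block was added to the offset (0.68, edgeR, adjusted p = 0.077). KLF1 was at -0.70 and not called without MYC library 3, and at -0.83 and not called with DESeq2.

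Among the SP factors, which compete for the same GC boxes, SP2 fell from 87.6 ± 5.16 to 33.2 ± 5.79 CPM, at -1.40 ± 0.12 (adjusted p = 3.06e-05, edgeR) and -0.77 with the GC offset. SP1, a broadly expressed activator, was at -0.17 ± 0.06 (adjusted p = 0.0302, edgeR), and its call ended without control library 2 (-0.18), control library 3 (-0.14), MYC library 1 (-0.15) or MYC library 2 (-0.19). The SP1 call also ended with DESeq2 (-0.16) and with no expression filter (-0.19). SP3 was at -0.09 and not called, and at -0.30 and called with the offset. SP4 rose, at 0.28, and was at 0.09 and not called with the offset. It was also not called on log2(TPM + 1) (0.21). Summed over the 25 matched KLF and SP genes, the TPM was 409.0 ± 10.4 in control and 296.1 ± 7.19 in MYC libraries.

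**Figure D4:**
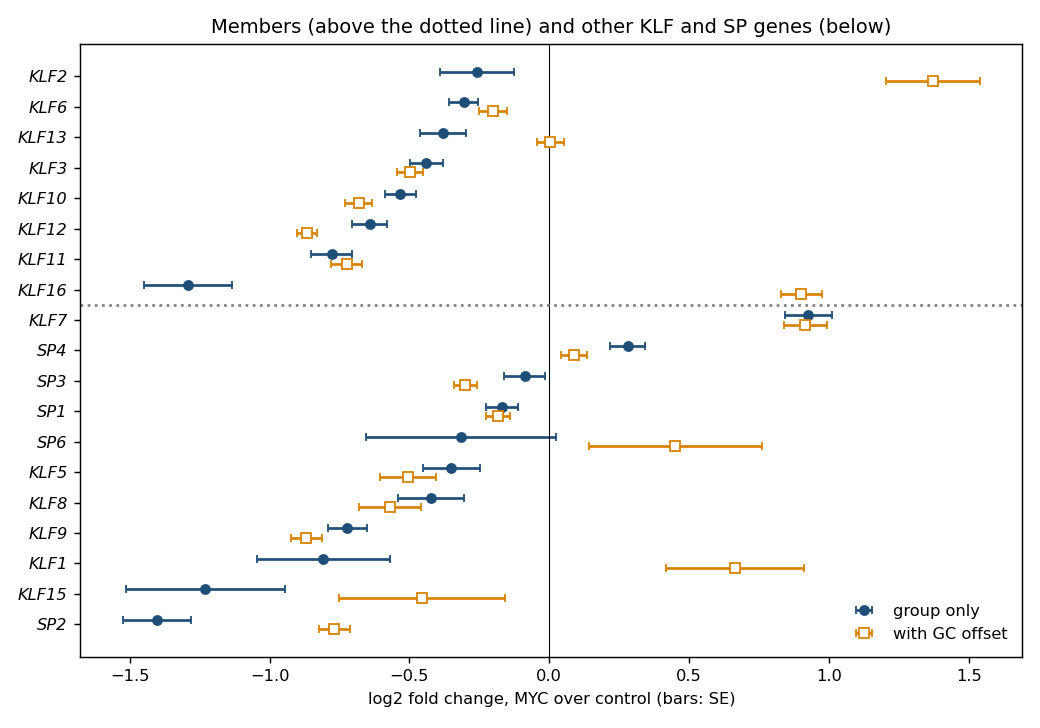
Log2 fold change of MYC over control (horizontal, bars SE) by the group-only fit (circles) and with the GC offset (squares), for the 8 members tested above the dotted line and 11 other KLF and SP genes below it. KLF3, KLF6, KLF10, KLF11, KLF12 and KLF9 lie below 0 in both fits, KLF7 lies above 0 in both, and KLF2, KLF16, KLF1 and SP6 lie on opposite sides. KLF13 lies below 0 by the group-only fit and almost at 0 with the GC offset.

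Genes that act with or upstream of these factors were taken from lists chosen with earlier results of these data known. Over all genes tested 28.8% were called higher and 32.1% lower, or 31.5% and 26.9% with the GC offset. Of 12 tested corepressor genes 4 were called higher and 3 lower, at a median of 0.06, and with the GC offset 6 were higher and 2 lower. CTBP1, the corepressor bound by KLF3 and KLF12, was at 88.6 ± 3.70 CPM in control and 40.8 ± 6.99 CPM with MYC, or -1.12 on the log2 scale, and was at -0.04 and not called with the offset. SIN3B likewise was at -0.69, and at -0.06 and not called with the offset. The histone deacetylase HDAC1 rose both ways, at 0.54 and 0.55, as did the demethylase KDM1A, at 0.76 and 0.64. Of 5 coactivator genes 1 was higher and 3 lower, and with the offset 2 were higher and 2 lower. The acetyltransferases EP300 and CREBBP were called lower both ways, at -0.36 and -0.56 by the group-only fit, but CREBBP was no longer called with an offset for effective length (-0.19) or on log2(TPM + 1), where it was at -0.23. The acetyltransferase KAT2B rose, at 0.42 and 0.22, and KAT5 was at -0.41, and at 0.07 and not called with the GC offset.

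KLF2 is induced by the kinase ERK5 through MEF2 factors and by FOXO factors. Of the 10 genes listed for that route 7 were called lower and 0 higher, at a median of -0.52, beside 32.1% and 28.8% of all genes tested. With the GC offset 5 were lower and 0 higher, beside 26.9% and 31.5% of all genes. MEF2B, a B cell factor, fell from 77.8 ± 4.97 to 14.1 ± 3.02 CPM, at -2.46 ± 0.15 (adjusted p = 5.32e-06, edgeR) and -0.95 with the offset. MAP2K5, the kinase of ERK5, fell both ways, at -0.67 and -0.84. MEF2D, the most abundant MEF2 gene in TPM, was at -0.91, and at -0.08 and not called with the offset. FOXO4 was at -0.65, and at -0.10 and not called with the offset. Of 14 tested TGF-beta pathway genes, the route to KLF10 and KLF11, 3 were higher and 5 lower, at a median of -0.13, and with the offset 4 were higher and 6 lower. The inhibitory SMAD7 fell both ways, at -0.83 and -0.43, and the SMAD corepressor SKI was at -0.73, but at 0.34 and called higher with the offset. The ligand TGFB2 was near 0 in control (0.036, 0 and 0.0378 CPM) and higher with MYC (0.303, 0.238 and 0.386 CPM), and the inhibitory SMAD6 rose from 0.0725 ± 0.0193 to 0.195 ± 0.015 CPM, both called both ways by edgeR. DESeq2 did not call SMAD6 (adjusted p = 0.0512). Of 6 ubiquitin ligases that act on these factors 1 was higher and 2 lower, or 1 and 3 with the offset, and WWP1 rose, at 0.42 and 0.18. SIAH1 fell, at -0.28 and -0.44, and VHL, at -0.25 and -0.35, was not called without MYC library 2 (-0.24), with an offset for effective length (-0.17) or on log2(TPM + 1) (-0.22).

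Genes known as targets did not move in 1 direction. Of 5 tested homing and receptor genes linked to KLF2 in lymphocytes 3 were higher and 2 lower, with and without the GC offset. Over all genes tested 28.8% were higher and 32.1% lower, or 31.5% and 26.9% with the offset. CCR7, a chemokine receptor of lymph node homing, rose from 0.296 ± 0.0607 to 7.66 ± 0.475 CPM, at 4.63 ± 0.15 (adjusted p = 3.06e-07, edgeR). The integrin ITGB7 fell from 155 ± 10.8 to 67.0 ± 8.94 CPM and the receptor IL6R from 1347 ± 36.2 to 869 ± 17.9 CPM. With the offset CCR7 was at 4.94, ITGB7 at -0.54 and IL6R at -0.18.

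Of 12 other tested targets reported for Kruppel-like factors 3 were higher and 7 lower, at a median of -0.31. With the offset 4 were higher and 4 lower. The shares over all genes tested were 28.8% higher and 32.1% lower, or 31.5% and 26.9% with the offset. CDKN1A, a division inhibitor activated by KLF4 and KLF6, fell from 57.96 ± 1.31 to 16.1 ± 1.53 CPM, at -1.85 and -1.05 with the offset. CCNB1 rose, at 0.70 and 0.51, and the plasma cell factor IRF4 fell, at -0.71 and -0.41. CCND1 was at -0.62, and at 0.38 and called higher with the offset. Of 17 tested immediate-early genes, the class of KLF2, KLF6 and KLF10, 2 were higher and 13 lower, at a median of -0.52, but with the offset 6 were higher and 6 lower, at a median of 0.06. JUN and ATF3 fell both ways, at -1.33 and -0.92 by the group-only fit and at -0.91 each with the offset. SGK1 rose both ways, at 0.90 and 0.73, and IER2 was at -0.82, but at 0.46 and called higher with the offset.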

How the data were processed

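RSEM gene tables were deposited by the authors. Each gives, per the file headers, the expected count, TPM, FPKM (not used), transcript length and effective length in bases (other values) of every gene. The submitters' processing notes name cutadapt, TopHat2 and GRCh37. Their versions, the annotation and the strand setting were not given, so overlapping genes may share reads. The kit was NEBNext Ultra, per the labels' protocols. Symbols were matched by identifier (51996 rows), and 2 list symbols had none.

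Expected counts were rounded. edgeR 4.0.16 (R 4.3.3) then fitted the group alone after its default filter, with TMM factors and Benjamini-Hochberg adjustment. SE is the log2 fold change over the square root of F. The GC offset removes each library's robust loess trend (span 0.4, log2 CPM with prior count 2) on the mean GC of a gene's GENCODE 29 transcripts, and 630 tested genes without a GC value were left uncorrected. In simulated counts for 17345 genes, 54, 72 and 65 genes were changed by 1.5-, 2- and 4-fold. Of these changes 57.4%, 79.2% and 96.9% were recovered, and 19 of 170 calls were false. Far fewer genes changed there than were called in the data, and no GC trend was simulated. These rates therefore do not carry over to the calls given here. No libraries agreed to sampling noise: chi-square over degrees of freedom was 8.67 or more.

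Members and lists were chosen with earlier results of these data known. Named were all members, MYC, the other KLF and SP genes, up to 4 called genes of each list by smallest adjusted p (where fewer than 2 were called, up to 2 of the most abundant), and the 3 protein-coding genes of mean CPM at least 5 most like KLF16, the member with the largest fall by the group-only fit (where no member was called higher), by Euclidean distance of log2 CPM less the control mean. The values of 1 gene that this rule names are not reported here.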

Additional observations from a re-analysis of the deposited data

How the results depend on the processing

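In 17 settings without a GC offset (RLE factors, total counts, DESeq2 1.42.0, limma 3.58.1 voom, log2(TPM + 1), log2(TPM + 0.1), no filter, mean CPM of at least 5, effective length offset, replicate block, leaving out MYC with the 20 most abundant genes, and leaving out each library), KLF3, KLF6, KLF10, KLF11, KLF12, KLF13 and KLF16 stayed called lower, and KLF2 was called in 1. With mean CPM of at least 5, 3694 genes were lower, against 5671. Leaving out 1 library gave 4184 to 5076 genes higher and 4925 to 5809 lower. With the GC offset, alone, with a replicate block, or with each library left out (chosen after seeing the data), 2 members were called higher. KLF2 was at 1.37 and 1.36 (block), and without control libraries 1 to 3 and MYC libraries 1 to 3 in turn at 1.48, 1.35, 1.28, 1.52, 1.30 and 1.26. KLF16 was at 0.90 and 0.89 (block), and in the same order at 0.90, 0.93, 0.87, 0.96, 0.83 and 0.89. KLF13 was at 0.0043, 0.0056 (block), 0.049 without control library 1 and 0.038 without MYC library 3, and from -0.025 to -0.0041 without each of the other libraries. With the GC offset, without and with the block, KLF1 was at 0.66 (called) and 0.68 (not called), SP6 at 0.45 and 0.49, KAT5 at 0.072 and 0.073, SKI at 0.34 and 0.36, CCND1 at 0.38 and 0.38, IER2 at 0.46 and 0.45, KRT8 at 0.24 and 0.24, ZBTB45 at 0.033 and 0.024, TSR3 at 0.20 and 0.19, and BICRA at 0.0098 and 0.00082. KRT8 was also at 0.45 with the offset for effective length, 0.26 on log2(TPM + 1) and 0.38 on log2(TPM + 0.1). The cause was not tested. Deviations of like-numbered libraries from their group means correlated at -0.047, 0.078 and 0.11, and not every library correlated best with its own number. With 3 libraries per group these values cannot tell whether the libraries were paired. The replicate block alone gave 4649 genes higher and 5380 lower, and 7 members lower; it ended the call for SP1. The calls of DCN, KLF5, SP4, CREBBP and VHL, which ended on log2(TPM + 1), also ended on log2(TPM + 0.1). Depth limits KLF4, KLF1 and KLF15.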
